A study of Homo sapiens with 2 samples.

Results

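Natural killer cells are lymphocytes that kill damaged or transformed cells when their activating receptors find ligands on the target. The 10 genes described here encode such ligands. They were chosen by name out of 19220 gene symbols, as stress ligands of the receptors NKG2D, NKp30 and DNAM-1, and NCR3LG1 was already known to have one of the highest ratios in these data. The ratios therefore describe the members and test nothing. MICA, MICB, ULBP1, ULBP2, ULBP3, RAET1E and RAET1G encode proteins with an MHC class I fold that bind NKG2D. NCR3LG1 encodes B7-H6, a surface protein of the B7 family, and BAG6 encodes a nuclear and cytosolic chaperone that can leave the cell, and both bind NKp30. PVR encodes CD155, an adhesion protein bound by DNAM-1 and by the inhibitory receptor TIGIT. As background, signalling from damaged DNA through the kinases ATM and ATR is known to raise NKG2D ligands in some cell types.

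The RNA came from H9, a clonal derivative of an older human T lymphoma line, labelled as wild type in both groups. There was 1 library of untreated cells, labelled as 0 h of doxorubicin, and 1 library of cells that had 0.05 µM doxorubicin in the medium for 6 h. This drug, an anthracycline, holds topoisomerase II in cleavage complexes. The untreated library held 33730703 read counts and the doxorubicin library 50174434, and levels are given in CPM, scaled with TMM effective library sizes. With 1 library per condition there is no replicate and no test. A range after a ratio is its 95% Clopper-Pearson interval, and a range after a level is an exact Poisson interval, and both cover counting error only. A gene was treated as measured from 100 counts over both libraries, and called higher or lower at 1.5-fold or more with an interval that excludes a ratio of 1. Fewer cells with a transcript and less transcript per cell cannot be told apart in bulk RNA.

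The label of the cell type was set beside its markers. The T cell genes CD5, CD3E and LCK had 6028, 7149 and 4880 counts in untreated cells, CD3G was higher (log2 ratio 1.11) and TRAT1 lower (-0.74) with doxorubicin, while the T cell markers CD2 and CD7 had 0 and 8. The natural killer cell markers NCAM1, FCGR3A, KLRD1, KLRF1, NCR1 and KIR2DL4 had at most 2 counts each in untreated cells and at most 4 with doxorubicin, with FCGR3A and NCR1 at 0 in both. Of 20 markers of other cell types, 16 were below 100 counts, and the measured ones included CD79A, of B cells, with 6007 and 6628 counts and EPCAM, of epithelium, with 2591 and 3236. The others measured, CDH1 and COL1A1, had at most 317 counts, and none of these 4 was past the size limit. Their part in the ligand values was not tested.

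Of the 10 ligand genes, 7 were measured and 3 were below the count minimum. Of the measured members 1 was higher with doxorubicin, 0 were lower and 6 were neither, where 7.26% of all 11244 measured genes were higher (816 genes) and 9.57% lower (1076 genes). Scaling by total counts turned that split to 1084 higher and 852 lower, and left the members' count at 1. The higher gene was NCR3LG1, at 3.65-fold. The other 6 lay between log2 ratios of 0.08 and 0.33. The median of the 7 was 0.26, beside 0.007 over all measured genes. The interval lay above a ratio of 1 in 6 of the 7, all but MICB, and in 38.1% of all measured genes.

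**Figure D1:**
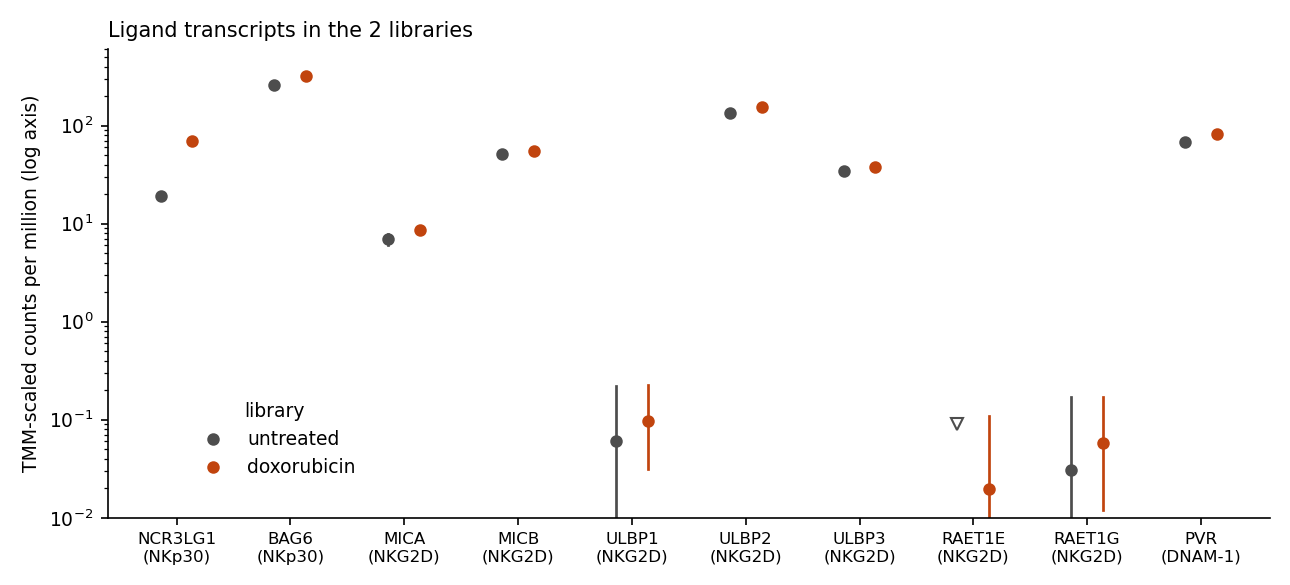
Levels of the 10 ligand genes in each library, as TMM-scaled CPM on a log axis, not divided by length, with exact Poisson intervals as lines that are cropped at the lower edge of the axis. The receptor is given in brackets, and the open triangle marks the level that 0 counts allow. NCR3LG1 had 18.9 CPM untreated and 69.0 with doxorubicin, and ULBP1, RAET1E and RAET1G had 5 counts or fewer in each library.

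NCR3LG1 stood apart from the other ligands. It had 623 counts in untreated cells and 3546 with doxorubicin, or 18.9 (17.5 to 20.5) and 69.0 (66.8 to 71.3) CPM. The doxorubicin library held the higher level, and the counting intervals did not overlap. The log2 ratio was 1.87 (1.74 to 1.99). Among all measured genes it ranked 7 from the top, with 99.9% of genes below it. Against each of the other 6 measured ligands the log2 ratio of NCR3LG1 was larger by at least 1.54, the value for MICA (1.27 to 1.80). The largest difference among those 6 was 0.25 (0.002 to 0.51), between MICA and MICB. Of the 15 pairs among them, 6 had a counting interval that excludes 0.

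No overlap or shared stretch with another annotated gene was found for NCR3LG1. In GENCODE release 29 its longest transcript paired with RefSeq has 6438 bases, of which 1362 are coding and 4832 lie after the coding part. Of its exons 0% are overlapped by another gene, and 0 of 256 sampled stretches of 50 bases occur in transcripts of other genes. The genes that lie next to it on chromosome 11 were taken by position, after the values were known. NUCB2, which encodes a calcium-binding protein, had 17641 and 18019 counts and was lower at a log2 ratio of -0.61 (-0.64 to -0.58). PIK3C2A, a lipid kinase gene, was at 0.04 (-0.09 to 0.17). On the other side KCNJ11, a potassium channel gene, had 42 and 84 counts, and ABCC8, a gene for the channel's regulatory subunit, had 0 in both libraries. None of these 4 neighbours was called higher, where 7.26% of all measured genes were. ABCC8 was below the count minimum and could not be called. The low counts of KCNJ11 left a wide interval, at a log2 ratio of 0.35 (-0.19 to 0.93).

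The promoter of NCR3LG1 is shown because this gene had the outlying ratio. It is the RefSeq window of 300 bases on GRCh38.p14, chr11:17351550-17351849, plus strand, from 250 bases before the annotated start to 50 after it, and capitals mark GGGCGG, the GC box, on either strand.
NCR3LG1: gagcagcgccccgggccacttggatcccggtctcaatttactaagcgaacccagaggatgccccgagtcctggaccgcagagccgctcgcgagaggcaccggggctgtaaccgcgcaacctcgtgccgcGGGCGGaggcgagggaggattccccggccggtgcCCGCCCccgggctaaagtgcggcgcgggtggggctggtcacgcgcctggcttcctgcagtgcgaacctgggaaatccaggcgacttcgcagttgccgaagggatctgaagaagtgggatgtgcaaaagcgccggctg
The GC box starts at positions -121 and -87 from the start of the gene, and 15786 of 35116 RefSeq windows of this length hold at least 1. The window has a GC content of 68.0%. It holds 0 matches on either strand to CACGTG, the E-box that MYC can bind, which 7.26% of the windows hold. It also holds 0 matches to GAANNTTC, CCAAT, TGACGTCA and TGANTCA. MYC is reported to drive NCR3LG1 in tumour cells. The MYC transcript had 17052 and 34272 counts, a log2 ratio of 0.37 (0.34 to 0.39), below the size limit. Whether MYC had a part in the NCR3LG1 ratio was not tested. The letters of this window do not show where a factor binds.

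BAG6 had the most counts of the 10 genes, 8463 untreated and 16479 with doxorubicin. Scaled, these are 257 (251 to 262) and 321 (316 to 326) CPM, and the intervals did not overlap. The log2 ratio was 0.32 (0.28 to 0.36), short of the size limit. The share of NCR3LG1 in the summed counts of the NKp30 ligands went from 6.86% (6.35 to 7.40) to 17.7% (17.2 to 18.2). The sum itself went from 9086 to 20025 counts, 1.41-fold (1.38 to 1.45) after scaling. Exons of BAG6 are overlapped by another coding gene over 2.56% of their length. Of the genes on either side, PRRC2A was at 0.45 (0.42 to 0.48) from 15698 and 33483 counts, and APOM, which encodes an apolipoprotein, was lower at -1.45 (-2.01 to -0.91) from 79 and 45.

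MICA and MICB are the MIC ligands of NKG2D, membrane proteins encoded in the MHC region. MICA had 227 and 445 counts, or 6.89 (6.02 to 7.85) and 8.66 (7.88 to 9.51) CPM. Its level was higher in the doxorubicin library by a margin just outside these intervals, and the log2 ratio was 0.33 (0.10 to 0.57). MICB had 1705 and 2806 counts, or 51.8 (49.3 to 54.3) and 54.6 (52.6 to 56.7) CPM. The 2 MICB levels overlapped within counting error, and the log2 ratio was 0.08 (-0.01 to 0.17).

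The pair are close copies, so the sequences bear on how reads could be assigned. Their coding sequences are identical at 92.1% of 989 aligned bases, with a longest identical run of 71 bases. The stretch of 75 coding bases with the fewest differences, bases 147 to 221 of each in GENCODE release 29, is given with the base that differs from MICA in capitals.
MICA: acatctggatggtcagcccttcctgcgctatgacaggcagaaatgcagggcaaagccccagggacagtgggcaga
MICB: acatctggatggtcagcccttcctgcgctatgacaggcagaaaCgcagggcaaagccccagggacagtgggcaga
Even so, only 3 of 89 sampled stretches of 50 bases of MICA, and 2 of 96 of MICB, occur unchanged in another gene's transcript. The promoters are shown because both genes are known to respond to heat shock. They are RefSeq windows on GRCh38.p14, chr6:31403345-31403644 for MICA and chr6:31497895-31498194 for MICB, both on the plus strand, with GAANNTTC, a pair of heat shock element units, in capitals.
MICA promoter: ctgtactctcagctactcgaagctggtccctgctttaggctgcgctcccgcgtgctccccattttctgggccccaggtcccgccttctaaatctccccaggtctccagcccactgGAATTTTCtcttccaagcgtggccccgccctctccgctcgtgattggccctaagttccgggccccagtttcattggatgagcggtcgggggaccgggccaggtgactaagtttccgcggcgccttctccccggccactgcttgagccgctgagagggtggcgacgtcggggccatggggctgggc
MICB promoter: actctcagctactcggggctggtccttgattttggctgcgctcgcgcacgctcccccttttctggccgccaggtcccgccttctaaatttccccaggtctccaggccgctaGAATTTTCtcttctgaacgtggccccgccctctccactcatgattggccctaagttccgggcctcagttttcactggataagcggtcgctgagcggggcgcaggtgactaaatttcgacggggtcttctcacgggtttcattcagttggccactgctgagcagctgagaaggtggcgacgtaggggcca
Each holds 1 match, starting at position -135 in MICA and -139 in MICB, and 6.77% of the 35116 windows hold one. A match is a description of these letters and not a shown binding site. The transcript of HSF1, the heat shock factor that binds such elements, had 4211 and 5832 counts, a log2 ratio of -0.17 (-0.23 to -0.11). Adjusted for GC content and the lengths of transcript and coding part, as described below, HSF1 was at -0.02. The activity of HSF1 was not tested.

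ULBP2 and ULBP3, small NKG2D ligands anchored to the membrane by a lipid, were the other measured members of this group. ULBP2 had 4464 and 7904 counts, the most of the 7 NKG2D ligands in both libraries. Scaled, these are 135 (132 to 140) and 154 (150 to 157) CPM, which did not overlap, at a log2 ratio of 0.18 (0.13 to 0.24). ULBP3 had 1123 and 1945 counts, or 34.1 (32.1 to 36.1) and 37.9 (36.2 to 39.6) CPM, at a log2 ratio of 0.15 (0.04 to 0.26). ULBP1 had 2 and 5 counts, RAET1E had 0 and 1, and RAET1G had 1 and 3, so these genes of the same cluster on chromosome 6 were at or near the detection limit in both libraries. The 0 counts of RAET1E allow up to 0.0911 CPM in untreated cells. The log2 ratio of ULBP1 was 0.50 (-1.93 to 4.07), so a difference was not detectable at this depth.

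The low counts of RAET1G beside ULBP2 have to be read with their likeness. ULBP2 is identical to RAET1L at 96.7% and to RAET1G at 94.3% of 738 aligned coding bases, with identical runs of 168 and 121 bases. ULBP3 is identical to ULBP2 at 74.2% of 729. A stretch of 75 coding bases is given, bases 82 to 156 of ULBP2, RAET1L and RAET1G and bases 85 to 159 of ULBP3, with differences from ULBP2 in capitals.
ULBP2: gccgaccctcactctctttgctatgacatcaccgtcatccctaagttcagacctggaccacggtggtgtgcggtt
RAET1L: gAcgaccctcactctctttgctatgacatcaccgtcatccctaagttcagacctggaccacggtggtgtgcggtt
RAET1G: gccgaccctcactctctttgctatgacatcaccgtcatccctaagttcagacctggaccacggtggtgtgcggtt
ULBP3: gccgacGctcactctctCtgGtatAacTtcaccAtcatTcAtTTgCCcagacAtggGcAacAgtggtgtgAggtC
RAET1G has 0 differences from ULBP2 here, RAET1L has 1 and ULBP3 has 18. Of the sampled stretches of 50 bases, 17 of 52 in ULBP2, 7 of 43 in RAET1G and 5 of 38 in ULBP3 occur in other genes. The sources used here do not say how reads with several alignments were treated, so the ULBP2 values are uncertain to that extent. RAET1L had 0 and 2 counts. Summed over ULBP2, RAET1G and RAET1L the ratio was 1.14-fold (1.09 to 1.18). It had to be near that of ULBP2 alone, because RAET1G and RAET1L add few counts. The sum cannot show reads that were dropped or assigned to the wrong copy. RAET1E has 35.0% of its exons overlapped by another coding gene and 35 of 82 stretches shared.

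Over all 7 NKG2D ligands the counts summed to 7522 (7353 to 7694) and 13109 (12886 to 13335), or 228 and 255 CPM. The sum was 1.12-fold higher (1.09 to 1.15) with doxorubicin, and 1.17-fold under scaling by total counts. ULBP2 made up 59.3% of its counts (58.2 to 60.5) untreated and 60.3% (59.5 to 61.1) with doxorubicin. MICB made up 22.7% (21.7 to 23.6) and 21.4% (20.7 to 22.1), ULBP3 14.9% (14.1 to 15.8) and 14.8% (14.2 to 15.5), and MICA 3.02% (2.64 to 3.43) and 3.39% (3.09 to 3.72). The intervals of the 2 libraries overlapped for each of the 7 genes, which does not show that a share was unchanged. Compared directly, the log2 ratio of MICB differed from that of ULBP2 by -0.11 (-0.21 to -0.003). That of MICA was larger than that of MICB by 0.25 (0.002 to 0.51). The other pairs of measured NKG2D ligands had intervals that include 0. Per base of transcript, ULBP2 made up 63.1% and 63.8%.

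**Figure D2:**
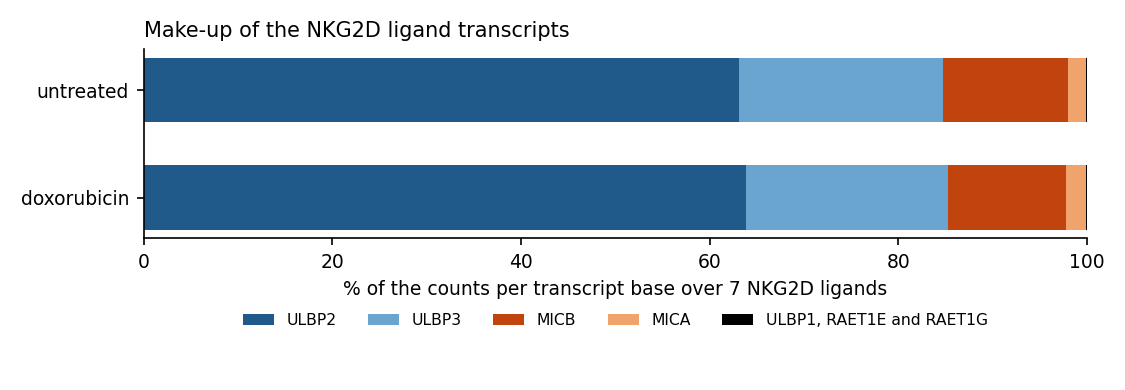
Share of each of 7 NKG2D ligands in the counts per transcript base, in percent, with 1 bar per library. ULBP2 takes 63.1% of the untreated and 63.8% of the doxorubicin bar, ULBP3 21.7% and 21.5%, MICB 13.3% and 12.5%, and the black sliver for ULBP1, RAET1E and RAET1G is barely visible.

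PVR, the DNAM-1 ligand among the members, had 2237 and 4178 counts, or 67.9 (65.1 to 70.8) and 81.3 (78.9 to 83.8) CPM. The doxorubicin library held the higher level and the intervals did not overlap, at a log2 ratio of 0.26 (0.19 to 0.34). NECTIN2, which encodes the other DNAM-1 ligand, had 613 and 889 counts and a log2 ratio of -0.10 (-0.25 to 0.05). Summed, the pair were at 1.14-fold (1.09 to 1.19).

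Levels can be compared between genes only per length. In untreated cells the CPM per kilobase of transcript were 100.4 for ULBP2, 67.3 for BAG6, 34.5 for ULBP3, 21.2 for MICB, 20.4 for PVR, 3.05 for MICA and 2.94 for NCR3LG1. The levels of MICB (20.2 to 22.2) and PVR (19.6 to 21.3) overlapped, as did those of MICA (2.66 to 3.47) and NCR3LG1 (2.71 to 3.18). With doxorubicin ULBP2 was at 114, BAG6 at 84.1 and ULBP3 at 38.3, and these kept the upper places of the order. NCR3LG1 reached 10.7 (10.4 to 11.1) and lay above MICA at 3.83 (3.49 to 4.21), and PVR at 24.5 (23.7 to 25.2) lay above MICB at 22.3 (21.5 to 23.2). At this level NCR3LG1 was below ULBP2, BAG6, ULBP3, PVR and MICB on this scale. The transcript lengths are those of 1 transcript per gene, and per kilobase of coding sequence NCR3LG1 went from 13.9 to 50.7, close to MICB at 47.5 and ULBP3 at 51.7 with doxorubicin.

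Ratios in these libraries also went with transcript length, which differs among the members. With the measured genes cut into 5 equal groups by length, the shortest, up to 1886 bases, had a median log2 ratio of -0.39 (interquartile range -0.65 to -0.15), and the longest, from 5525 bases, had 0.28 (0.06 to 0.50). ULBP3, with 988 bases, and ULBP2, with 1349, are in the shortest group, where 91.7% of the genes had lower ratios than ULBP3 and 92.9% lower ratios than ULBP2. NCR3LG1 is in the longest group, and had the highest ratio of its 2242 genes. Once adjusted by splines on GC content and on the lengths of transcript and coding part, NCR3LG1 was at 1.59, ULBP3 at 0.51, ULBP2 at 0.49, MICA at 0.42, PVR at 0.13, BAG6 at 0.12 and MICB at 0.05. Of the ligands only NCR3LG1 was then called higher, and 4.17% of the genes with this adjustment were. With a curve on transcript length alone ULBP3 was called higher too, at 0.69, and 4.94% of the genes with that adjustment were. The part of transcript length in the ratios of single ligands was not tested.

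**Figure D3:**
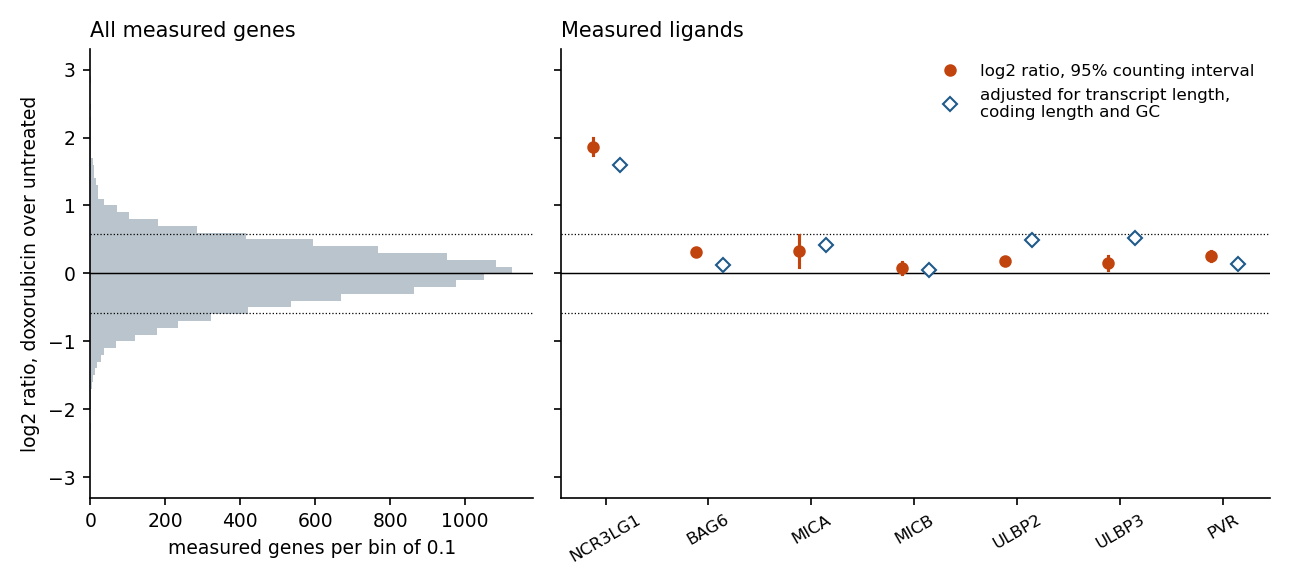
Left, log2 ratios of all 11244 measured genes in bins of 0.1. Right, log2 ratios of the 7 measured ligands, with circles and lines for the ratio and its 95% counting interval and open diamonds for the spline-adjusted value (GC content and both lengths). Dotted lines mark 1.5-fold. NCR3LG1 lies at 1.87 and at 1.59 after adjustment, and the other 6 lie inside the dotted lines both ways.

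**Figure D4:**
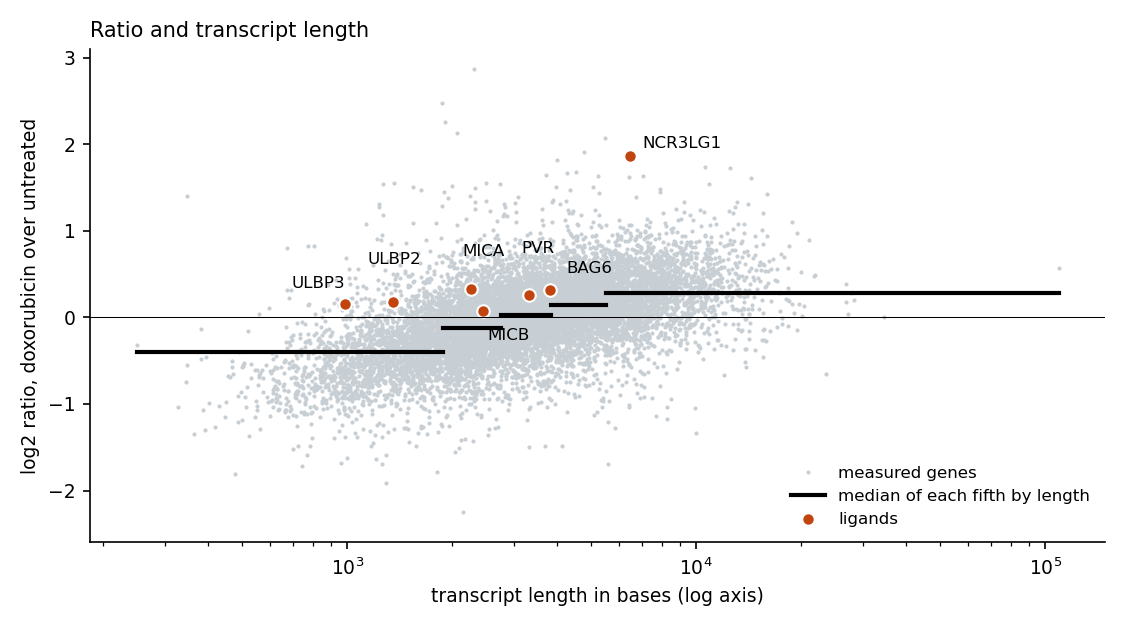
Log2 ratio of each measured gene against its transcript length in bases, on a log axis. Black lines give the medians of 5 equal groups by length, from -0.39 to 0.28, and the 7 measured ligands are named. NCR3LG1 lies far above the median of its group, and ULBP2 and ULBP3 lie above the median of the shortest group.

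By ratio alone, NCR3LG1 ranked 4 of 10204 measured genes whose higher count was 200 or more. With 2 libraries a pattern is a single ratio, so likeness means only a near rank. Directly above it were PLCXD2, of a phospholipase C domain family, at a log2 ratio of 2.14 from 33 and 229 counts, and GTPBP6, a GTP-binding protein, at 2.26 from 351 and 2631. Directly below were DDI2, an aspartic protease, at 1.74 from 50 and 263 counts, and ZBED6, a transcriptional repressor, at 1.73 from 141 and 732. Of these 5 genes NCR3LG1 had the most counts in both libraries.

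Other ligands and adhesion partners of natural killer cells were described as a list of 23 genes, chosen with earlier results known. Of 16 measured members 1 was higher, 3 were lower and 12 were neither, with a median log2 ratio of -0.11, where 7.26% of all measured genes were higher and 9.57% lower. ICAM1, an adhesion ligand of the integrin LFA-1, had 2744 and 6818 counts and was 1.59-fold higher (1.52 to 1.67). Other genes overlap 23.6% of its exons. CLEC2B, the ligand of NKp80, was lower at a log2 ratio of -0.85 (-1.11 to -0.58). CLEC2D, the ligand of the receptor CD161, was 1.77-fold lower (1.59 to 1.97), and CD70, the ligand of CD27, 1.74-fold lower (1.63 to 1.85). With the spline adjustment CLEC2D alone remained past the limit, at -0.69, and 17.6% of its sampled stretches occur in other genes. Of the members that were neither, VIM, reported as a ligand of NKp46, was at -0.15, ICAM3, another LFA-1 ligand whose exons other genes overlap over 71.2%, at -0.06 and CD48, the ligand of the receptor CD244, at -0.30.

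The receptors of these ligands differed in whether their transcripts were found. KLRK1, which encodes NKG2D, had 0 counts in both libraries. All of its sampled stretches are shared with a read-through gene. How reads shared by both genes were treated is not stated, so these counts cannot show that the KLRK1 transcript was absent. CD226, which encodes DNAM-1, had 1 and 2 counts, and TIGIT had 10 and 14. In contrast NCR3, which encodes NKp30, had 1666 and 3018 counts, at a log2 ratio of 0.22 (0.13 to 0.30), so the same library held transcripts of this receptor and of its ligands NCR3LG1 and BAG6. CD96, another receptor for PVR, had 3841 and 8573 counts, at 0.52 (0.46 to 0.57), below the size limit. CD247, the zeta chain that signals for NKp30 and the T cell receptor, was at 0.42 and PVRIG, an inhibitory receptor for NECTIN2, at -0.16, with 93.5% of its stretches shared with other genes. HCST, which encodes the NKG2D adaptor DAP10 and has 50.1% of its exons overlapped by other genes, was 2.04-fold lower (1.93 to 2.16), but only at -0.31 when spline-adjusted. After the same adjustment NCR3, at 0.66, and CD247, at 0.70, were past the limit. Of 14 receptor and adaptor genes 7 were measured, with 0 higher, 1 lower and a median log2 ratio of 0.22, beside 7.26% higher and 9.57% lower over all measured genes.

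Ligands can be cut from the surface by metalloproteases. Of 10 genes for shedding and release 8 were measured, 1 was higher and 0 were lower, with a median log2 ratio of 0.11 (all measured genes 7.26% higher, 9.57% lower). PDIA6, which encodes the disulfide isomerase ERp5 that takes part in MICA shedding, had 5282 and 12695 counts and was 1.54-fold higher (1.49 to 1.59), and other coding genes overlap 25.2% of its exons. The sheddases ADAM10 and ADAM17 were at 0.22 (0.15 to 0.29) and 0.39 (0.30 to 0.49), but at 0.0005 and 0.25 with the spline adjustment. HSPA5, an endoplasmic reticulum chaperone, was at -0.16, and at -0.33 with that adjustment. The partners of BAG6 in the insertion and quality control of membrane proteins were described as a further list. All 8 were measured, and 1 was higher, 2 lower and 5 neither (median -0.17), against shares of 7.26% and 9.57% over all measured genes. EP300, an acetyltransferase that BAG6 binds, was 1.84-fold higher (1.74 to 1.94), RNF126, its ubiquitin ligase partner, was lower at a log2 ratio of -0.59 (-0.63 to -0.55), and WRB, a receptor subunit for tail-anchored proteins with 28.6% of its stretches shared, was 1.65-fold lower (1.51 to 1.79). None of these 3 was past the limit with the spline adjustment, and RNF126 was not under scaling by total counts. SGTA, which hands clients to BAG6, was at -0.07, UBL4A, a subunit of its complex, at 0.17, and CAMLG, the other receptor subunit, at -0.56.

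Of 21 genes reported to regulate these ligands, all were measured and 0 were higher or lower, with a median log2 ratio of 0.10, and the shares over all measured genes were 7.26% and 9.57%. ATF4, an integrated stress response factor reported to drive ULBP1, had 40132 and 47544 counts and was at -0.40 (-0.42 to -0.38), with 24.1% of its stretches shared. STAT3, a cytokine-activated transcription factor, was at 0.53 (0.50 to 0.57), and at 0.22 with the spline adjustment. The kinases ATM and ATR were at 0.31 (0.22 to 0.41) and 0.28 (0.20 to 0.36), but at -0.11 each with the spline adjustment. Transcript counts do not measure the activity of these regulators, which was not tested.

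**Figure D5:**
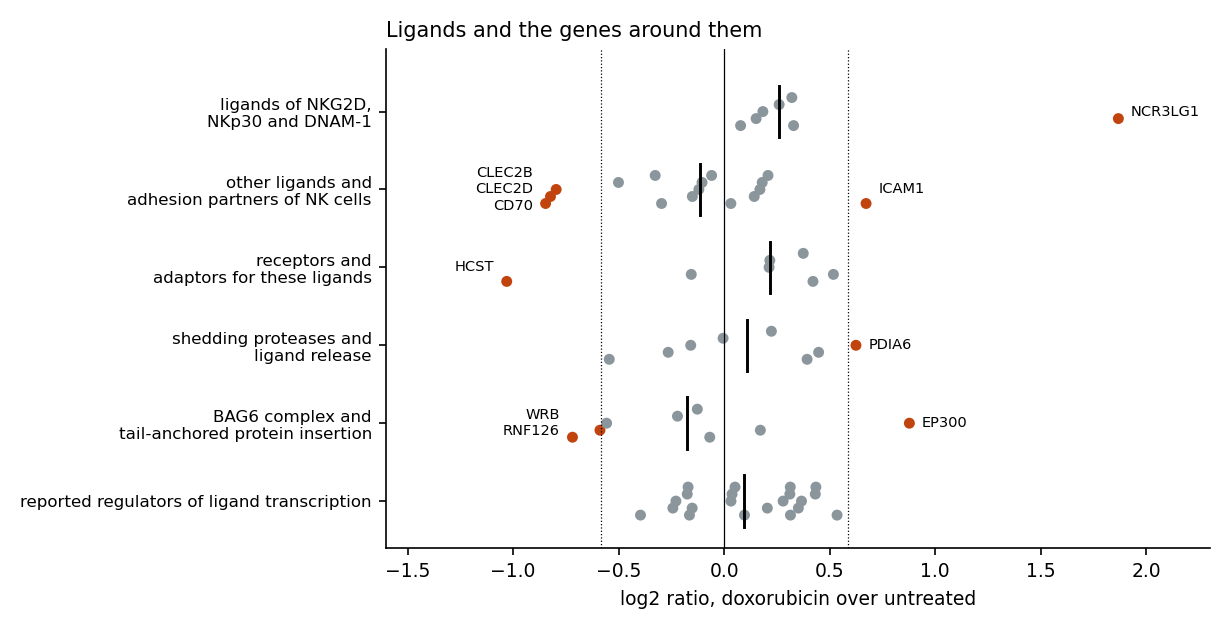
Log2 ratios of the measured genes in 6 lists, with 1 point per gene and a black line at each list's median. Orange points passed the size rule and are named, and dotted lines mark 1.5-fold. NCR3LG1 at 1.87 lies to the right of all other genes shown, and the next is EP300 at 0.88.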

How the data were processed

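RNA sequencing of 2 libraries of H9 cells, 1 untreated and 1 after doxorubicin, was used. Raw read counts per gene symbol were deposited by the authors. Per the submitters' processing notes HISAT2, featureCounts and hg19 were used, while versions, annotation, strand setting and any use of alternative MHC sequences are not stated there. Alternative MHC sequences would bear on MICA, MICB and BAG6, and this was not tested.

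Library sizes were scaled by TMM (edgeR 4.0.16, R 4.3.3). Log2 ratios had 0.5 added to each count, with 95% Clopper-Pearson intervals (SciPy 1.17.1). No p-value was computed, because each condition has 1 library. The size rule asked for 100 counts over both libraries, 1.5-fold and an interval that excludes 1, and was checked on simulated data. A count of 0 was taken to allow 3 counts. Lengths, overlaps and shared stretches of 50 bases came from GENCODE release 29, on GRCh38, another build than that of the counts, and 19080 of 19220 symbols matched. Adjustments used splines with 5 degrees of freedom or a lowess with a span of 0.3. RefSeq promoter windows of 300 bases matched 10 of 10 ligands. Coding sequences were aligned with Biopython 1.88.

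The members and lists were chosen with earlier results of these data known. Named were all members, each listed gene past the size rule, the 3 others of each list with the most counts, KLRK1, NCR3, CD226, TIGIT, NECTIN2, MYC and ATF4, and the 4 genes next to NCR3LG1 by ratio. The rule named 1 more gene, which is not reported here. HSF1, ATM, ATR, RAET1L, low cell type markers and genomic neighbours were added after their values were seen. Alternatives were DESeq2 1.42.0 size factors, total counts, other minimums, limits, intervals and added counts, and length adjustments.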

Additional observations from a re-analysis of the deposited data

How the results depend on the processing

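Without replicates, biological and technical variation were not measured, and counting intervals are a lower limit of the error. No paired analysis was possible because each condition has 1 library. NCR3LG1 was past the size rule under every alternative run, with log2 ratios of 1.59 to 1.94. Over 6 alternatives BAG6 lay between 0.12 and 0.40, MICA between 0.31 and 0.45, MICB between -0.008 and 0.17, ULBP2 between 0.18 and 0.57, ULBP3 between 0.15 and 0.69 and PVR between 0.12 and 0.33.

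With a lowess on transcript length, 2 members were higher in place of 1, and genes past the rule numbered 2 in place of 4 among other ligands, 3 in place of 1 among receptors (3 higher and 0 lower, in place of 0 higher and 1 lower), 0 in place of 3 in the BAG6 complex and 1 in place of 0 among regulators. The spline adjustment gave 1 other ligand, 2 receptors (both higher) and 0 genes of the BAG6 complex. A limit of 2-fold left 0 other ligands, 0 shedding genes and 0 genes of the BAG6 complex, and kept 1 member and 1 receptor gene. A stricter limit can only keep or lower such counts. Scaling by total counts gave 2 receptors (1 higher, 1 lower), 1 regulator and 2 genes of the BAG6 complex (1 higher, 1 lower), and a sum of NKG2D ligands at 1.17-fold in place of 1.12-fold. A count minimum of 20, or none, gave 5 other ligands (2 higher, 3 lower), as a higher gene below 100 counts then entered. A lowess on the median annotated transcript length, chosen after seeing the data, gave 0 shedding genes in place of 1 and 1 regulator in place of 0. For the alternatives other than the 2-fold limit and the lower count minimums, the cause was not tested.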
